A study of Mus musculus with 12 samples.

Results

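The comparison set mouse blastocysts from Ca-free medium against control blastocysts. The members are the 8 arrays labelled with these groups, 4 of each, out of 12 in the series. The other 4 arrays carried blastocysts treated by 20 pulses and entered the model to estimate the spread. Per the labels, the control group was normal mouse blastocysts, and total RNA of every group was purified with a PicoPure kit and converted into biotin-labelled cRNA for small samples. The title of the series concerns the pattern of Ca2+ oscillations in fertilised mouse eggs and its effect on gene expression and development to term. Strain, age of the embryos, the number pooled per array, and when and for how long Ca2+ was absent were stated by none of the labels read here. The labels do not say that replicates were separate collections of embryos, so p-values reflect the spread among these arrays and no wider one.

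In the fertilised mouse egg, Ca2+ is released in repeated waves from the endoplasmic reticulum through inositol trisphosphate receptors, and Ca2+ entering from the medium refills that store. The waves act through calmodulin and its kinase to end meiotic arrest, and the plasma membrane and endoplasmic reticulum pumps bring Ca2+ down again. Days later the blastocyst holds an outer trophectoderm, which pumps fluid and implants, and an inner cell mass with epiblast and primitive endoderm. The arrays report mRNA of the whole blastocyst, so fewer cells of a type and less RNA per cell cannot be told apart.

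The labelled stage was checked against lineage markers, each read by its brightest probe set and as a mean signal (intensity, all arrays scaled to a trimmed mean of 500). Epiblast factors were present, with Pou5f1 at 5173 in control and 5952 in Ca-free medium, and Nanog at 4838 and 4900. Trophectoderm genes were present as well, with Cdx2 at 4123 and 4981, and Krt8 at 13466 and 13545. Of the primitive endoderm factors, Gata6 read 4558 and 4751, whereas Gata4 read 222.3 and 126.5, and its decrease did not pass under quantile normalization (log2 change -0.35, adjusted p = 0.0783). The arrays differed in more than single genes. At equal trimmed means, the median signal of all probe sets was 164.6 to 176.8 on the control arrays and 127.6 to 130.6 on the Ca-free arrays. The controls differed in pairs: Actb, read at both ends of its transcript, gave a 3'/5' signal ratio of 1.59 and 1.67 on controls 1 and 2, and of 2.69 and 2.64 on controls 3 and 4, against 1.69 to 1.88 in Ca-free medium. The corresponding Gapdh ratio was 5.76 to 8.90 in control and 2.89 to 5.05 in Ca-free medium. The part of these array differences in the results was not tested.

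The split of calls between higher and lower depended on how the arrays were scaled. Of 27808 probe sets tested with limma at an adjusted p under 0.05, 2944 (10.6%) were higher and 8249 (29.7%) lower in Ca-free medium at the deposited scaling. After quantile normalization, 2723 (9.79%) were higher and 2774 (9.98%) lower. Scaling to the median of all probe sets gave 10236 (36.8%) higher and 1535 (5.52%) lower, and scaling to the hybridization controls gave 340 (1.22%) and 17634 (63.4%). The median log2 change of all probe sets tested was -0.18 at the deposited scaling, -0.02 after quantile normalization, 0.19 with median scaling and -0.47 with hybridization control scaling. The shift depended on brightness. With the probe sets in 10 equal sets by signal, the median log2 change was -0.36 in the dimmest set at the deposited scaling and 0.12 in the brightest. After quantile normalization these medians were -0.05 and 0.01. A gene is described as changed below only where it was called at the deposited scaling and after quantile normalization, unless said otherwise.

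**Figure D1:**
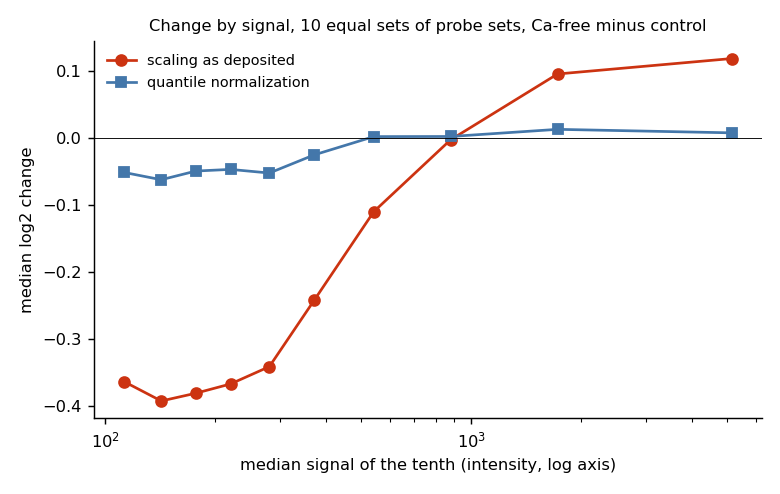
Median log2 change (Ca-free medium minus control) of 10 equal sets of the 27808 probe sets tested, ordered by mean signal (intensity, log axis). With the deposited scaling (circles) the median runs from -0.36 in the dimmest set to 0.12 in the brightest, and after quantile normalization (squares) it lies close to 0 throughout.

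Genes measured by several probe sets allowed a check within the gene. A gene was called agreeing where at least 2 of its probe sets were called the same way under both scalings and none was called the opposite way under either. Of 5700 genes with 2 or more tested probe sets, 138 (2.42%) agreed on a higher level in Ca-free medium and 88 (1.54%) on a lower level. Their change is given as the mean log2 change of all tested probe sets. It ranged from 0.11 to 1.12 in the genes that rose, with a median of 0.37, and from -1.22 to -0.05 in those that fell, with a median of -0.52, against -0.10 over all 5700 genes. After quantile normalization the medians were 0.37, -0.37 and 0.03. In 110 of the higher and 73 of the lower genes, at least 2 agreeing probe sets had Ca-free and control arrays that did not overlap. Over all probe sets tested, called or not, 2566 (9.23%) had every Ca-free array above the controls and 7499 (27%) below. The agreeing genes were chosen by calls on the same arrays, so the 110 and 73 are a description only. Every tested probe set of the gene was called in 47 of the higher and 34 of the lower genes. Leaving out 1 array lowered the count of lower genes, which was 58 without control 1, 57 without control 2, 57 without control 3, 56 without control 4, 58 without Ca-free array 1 and 53 without Ca-free array 4. Without any 1 of the 8 arrays, the higher count was 93 to 119. The genes that rose were brighter, with a median signal of 1332 and 87 of 138 at 1000 or more. The genes that fell had a median signal of 568.5, close to the 561.2 of all 5700.

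Agreement between probe sets of a gene was far from general. Of 3413 genes with exactly 2 tested probe sets, the pair of log2 changes had the same sign in 2212 (64.81%) at the deposited scaling and in 1938 (56.78%) after quantile normalization. In 103 of them both probe sets were called under both scalings, and in 73 of these 103 the calls had the same direction. Among all genes with several probe sets, 105 had probe sets called in opposite directions under both scalings. The splicing factor Sart3, picked as an example after its values were seen, had a probe set that rose from 108.2, 98.28, 39.34 and 31.69 on the controls to 307.3, 359.1, 456.3 and 288.7 on the Ca-free arrays. Its brighter probe set fell from 1334, 1503, 1670 and 1676 to 1284, 1052, 1065 and 1349. The dimmer probe set separated the groups completely, while the brighter one overlapped, with Ca-free array 4 above control 1.

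**Figure D2:**
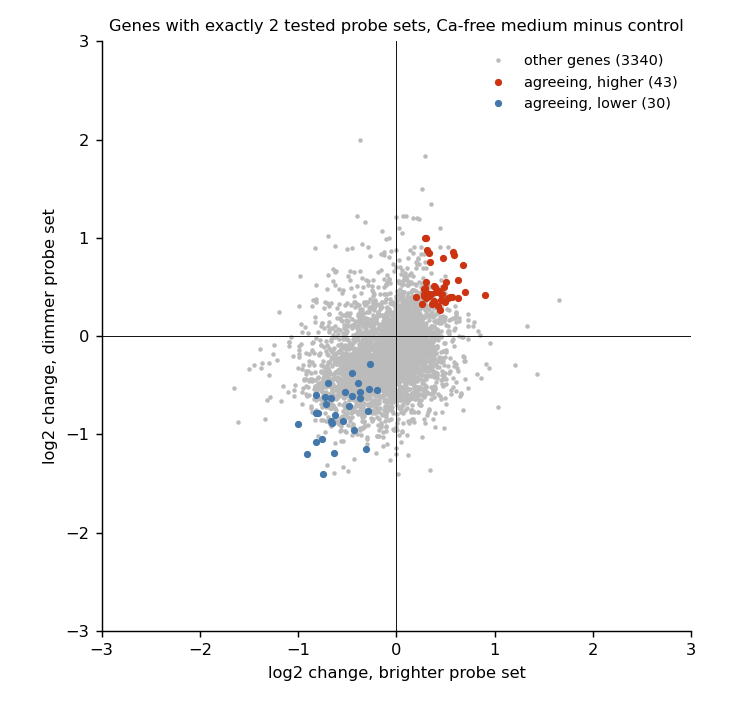
Log2 change (Ca-free medium minus control, deposited scaling) of the brighter and the dimmer probe set of each of 3413 genes with exactly 2 tested probe sets. Agreeing genes are coloured (43 higher, 30 lower) and the other 3340 are grey; many grey points lie in the quadrants where the signs differ.

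Chd4 had the largest increase among the agreeing genes. The genes named next are the largest after it among those with 2 agreeing probe sets whose groups did not overlap, a limit that left out Zmynd19 (mean log2 change 0.79) and Mfsd4b1 (0.64). Chd4 encodes the ATPase of the NuRD complex, which slides nucleosomes and carries histone deacetylases. Its probe set with the smallest p read 56.07, 50.04, 43.88 and 61.54 on the controls and 463.5, 392.3, 394.7 and 374.7 on the Ca-free arrays. A brighter probe set read 619.6, 631.3, 412.3 and 407.4 on the controls and 1002, 1169, 1080 and 1036 in Ca-free medium. Both separated the groups completely, and controls 1 and 2 lay above controls 3 and 4 in the brighter one. The log2 changes were 2.37 (SE 0.267, adjusted p = 0.000138) and 1.03 (SE 0.129, adjusted p = 0.000207), both from limma. The last probe set of Chd4 read 522.4 ± 70.1 and 508.1 ± 48.9 (SD, n = 4 each) and did not pass.

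Under that limit Tbc1d15 and Sfmbt2 came next. Tbc1d15, a GTPase-activating protein for Rab GTPases, read 225.6, 210.2, 138.3 and 61.47 on the controls and 614.6, 559.1, 553.1 and 513.5 in Ca-free medium (log2 change 1.74, adjusted p = 0.000545, limma). A second agreeing probe set rose from 2256 ± 113 to 3002 ± 244 (SD, n = 4 each), a log2 change of 0.41. The brightest probe set of Tbc1d15 read 5456 ± 522 and 6033 ± 869 and did not pass. Sfmbt2, a Polycomb-related protein expressed from the paternal allele in trophoblast, read 559.6, 569, 543.4 and 559.5 on the controls and 852.7, 853.5, 873.6 and 804.8 in Ca-free medium. The groups lay far apart relative to their spread (log2 change 0.57, SE 0.106, adjusted p = 0.0013, limma). Its second probe set rose by 0.86 on the log2 scale, from 173.7 ± 78.2 to 317.8 ± 33.4.

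Promoter sequences of the agreeing genes were read from a RefSeq table (GRCm38.p6) of 300-base windows that span each gene start. It held 144 windows of 113 of the 138 higher genes and 102 windows of 73 of the 88 lower genes. The median GC content was 63.0% in the first set, 60.5% in the second and 61.5% in 6058 windows of all genes with several probe sets. The observed to expected ratio of CpG was 0.90, 0.76 and 0.78. A set of 10 motifs was counted on both strands. The core bound by NRF1, a factor of nuclear genes for mitochondrial proteins, is GCGCATGC. It was in 14 of the 144 higher windows (9.72%), in 0 of the 102 lower windows, in 5.43% of the windows of all genes with several probe sets and in 2.71% of all 32851 windows of the table. The 14 windows belong to 13 genes, which are Abhd5, Denr, Dnmt1 (2 windows), Msl2, Mtch2, Ndufaf4, Nup50, Phf14, Sfmbt2, Sgf29, Smarca5, Tbc1d15 and Ublcp1. The windows of the 4 of them that the naming rule took are shown, with the core in capitals in either orientation and overlapping matches merged. Tbc1d15 starts at chr10:115251444-115251743 on the minus strand, Sfmbt2 at chr2:10372186-10372485 on the plus strand, Ndufaf4 at chr4:24897833-24898132 on the plus strand and Smarca5 at chr8:80739410-80739709 on the minus strand.
Tbc1d15: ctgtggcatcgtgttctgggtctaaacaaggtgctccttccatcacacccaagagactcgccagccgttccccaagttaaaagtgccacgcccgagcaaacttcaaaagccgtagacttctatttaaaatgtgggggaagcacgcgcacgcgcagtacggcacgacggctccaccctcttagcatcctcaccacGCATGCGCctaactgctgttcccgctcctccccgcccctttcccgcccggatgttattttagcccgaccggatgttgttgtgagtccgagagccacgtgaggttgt
Sfmbt2: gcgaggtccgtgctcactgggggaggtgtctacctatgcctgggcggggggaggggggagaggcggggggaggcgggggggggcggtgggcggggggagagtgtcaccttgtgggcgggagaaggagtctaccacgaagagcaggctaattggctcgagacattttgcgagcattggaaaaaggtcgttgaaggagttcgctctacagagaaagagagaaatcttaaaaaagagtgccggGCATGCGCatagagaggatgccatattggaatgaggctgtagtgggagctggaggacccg
Ndufaf4: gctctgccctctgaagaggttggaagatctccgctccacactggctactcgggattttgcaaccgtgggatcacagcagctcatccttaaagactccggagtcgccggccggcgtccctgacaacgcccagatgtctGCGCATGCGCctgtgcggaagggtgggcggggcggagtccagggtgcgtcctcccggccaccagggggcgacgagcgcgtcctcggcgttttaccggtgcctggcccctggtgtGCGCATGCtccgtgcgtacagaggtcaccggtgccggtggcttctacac
Smarca5: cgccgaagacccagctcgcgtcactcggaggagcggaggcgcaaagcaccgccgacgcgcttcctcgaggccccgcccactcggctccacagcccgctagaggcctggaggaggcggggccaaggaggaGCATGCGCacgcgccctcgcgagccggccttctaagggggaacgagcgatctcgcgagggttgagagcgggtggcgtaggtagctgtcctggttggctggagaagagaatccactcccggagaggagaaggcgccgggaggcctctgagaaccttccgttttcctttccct
Ndufaf4 holds 3 matches, of which 2 overlap on opposite strands, and the other windows hold 1 each.

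The remaining motifs were counted for the same windows. The cAMP response element TGACGTCA was in 4.17% of the higher, 5.88% of the lower and 3.29% of the windows of all genes with several probe sets. Its core TGACG, which every such element contains, was in 43.75%, 34.31% and 32.47%. The NFAT core GGAAAA was in 25.69%, 15.69% and 20.39%. The TATA box TATAAA was in 6.25%, 13.73% and 6.62%, and the GC box GGGCGG in 70.83%, 67.65% and 63.67%. The ETS motif CCGGAAG was in 18.75%, 17.65% and 17.66%, and the YY1 motif AAGATGG in 4.17%, 5.88% and 7.46%. CCAAT was in 39.58%, 44.12% and 37.5%, and the E-box CACGTG in 12.5%, 13.73% and 9.71%. In all 32851 windows the shares were 1.79% for the cAMP response element, 20.81% for its core, 23.36% for the NFAT core, 13.62% for the TATA box, 35.66% for the GC box, 8.86% for the ETS motif, 6.34% for the YY1 motif, 37.41% for CCAAT and 7.15% for the E-box. These are counts of letters in a window and do not show binding.

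The remaining increases named by the rule concern proteins of different kinds. Ctcf, the insulator protein that bounds chromatin loops, read 2570, 2609, 2250 and 2289 on the controls and 3905, 3687, 3919 and 3572 in Ca-free medium. Its second probe set read 1910, 2072, 1459 and 1479 on the controls and 2669, 2426, 2560 and 2544 in Ca-free medium. Both probe sets separated the groups, with log2 changes of 0.63 and 0.57 (adjusted p = 0.000168 and 0.00101, limma). Ltn1, the ubiquitin ligase that marks stalled nascent chains on ribosomes, had a dim probe set at 27.25, 20.57, 19.94 and 44.03 on the controls and at 276.4, 151.1, 219.4 and 248.9 in Ca-free medium (log2 change 2.09). Its agreeing brighter probe set rose by 0.40, and the other pair of its probe sets did not pass. Map7d2, a microtubule-associated protein, read 245.1, 236.1, 130.5 and 171.7 on the controls and 440.6, 383.7, 411.2 and 413.7 in Ca-free medium (log2 change 0.99). Ttll1, a tubulin polyglutamylase, rose from 274.9 ± 50.4 to 542.1 ± 87.5, and Cep350, a centrosomal protein, from 250.0 ± 49.2 to 427.0 ± 124 (SD, n = 4 each). Bod1l, which protects stalled replication forks, rose from 278.6 ± 20.6 to 432.5 ± 28.0. St13, a co-chaperone of Hsp70, rose from 3488 ± 599 to 5034 ± 194, with controls 1 and 2 at 4022 and 3978 and controls 3 and 4 at 3086 and 2865. Atpaf1, an assembly factor of the mitochondrial ATP synthase, rose from 1621 ± 94.9 to 2262 ± 93.6. Mafg, a small Maf transcription factor, rose from 1073 ± 76.1 to 1337 ± 85.1. These genes were chosen for groups that did not overlap. With hybridization control scaling the calls of Bod1l, Cep350, St13, Atpaf1 and Mafg ended. Cep350 also lost its call against controls 3 and 4 only and with Ca-free arrays 1 and 4 only, and Mafg against controls 3 and 4 only. The brighter agreeing probe set of Ltn1 lost its call with hybridization control scaling, against either pair of controls and with Ca-free arrays 1 and 4 only. Of 137 named probe sets, 42 lost their call with hybridization control scaling without a change of sign, and a further 15, Mafg among them, changed sign. With median scaling 19 lost their call without a change of sign and 6 changed sign. Some of those that changed sign had not been called before.

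**Figure D3:**
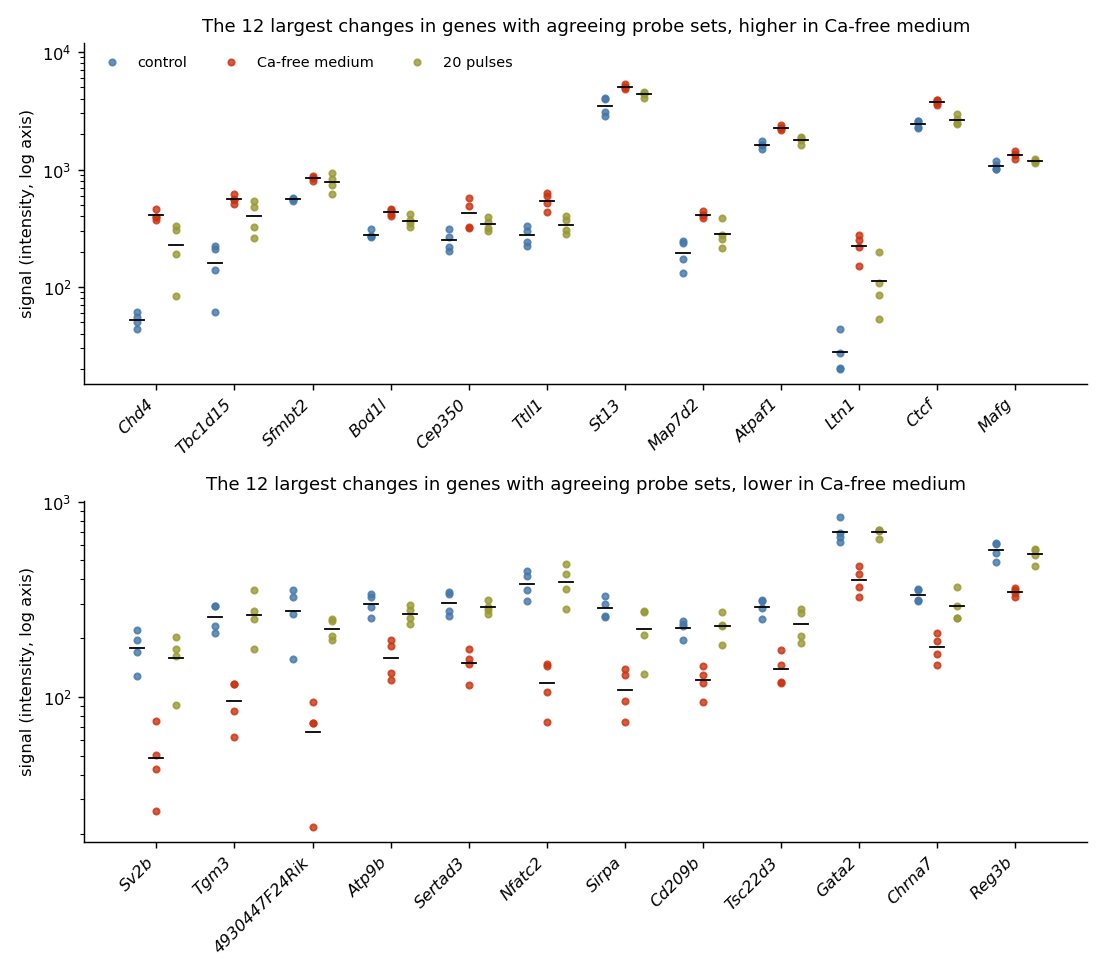
Signal (intensity, log axis) on every array for the 12 largest increases and 12 largest decreases among agreeing genes with 2 agreeing probe sets whose groups do not overlap, using for each gene the agreeing probe set with the smallest p. Points are arrays (4 per group) and bars are group means; by that choice the Ca-free points lie wholly above (higher genes) or below (lower genes) the control points.

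Further agreeing genes, picked after their values were seen, rose as well. All 5 probe sets of Ddx46, an RNA helicase of the spliceosome, were higher, and the gene's mean log2 change was 0.51. Its brightest probe set read 721.1, 737.8, 601 and 646.2 on the controls and 875.4, 852.7, 874.7 and 904.4 in Ca-free medium. All 3 probe sets of Slc12a2, the sodium, potassium and chloride cotransporter, were higher, and the brightest read 1240, 1430, 1136 and 1202 against 1784, 1847, 1929 and 1719. The groups were apart in both of these probe sets. Smarce1, a subunit of the SWI/SNF remodeller, rose from 1131 ± 109 to 1761 ± 152 and from 964.5 ± 30.9 to 1268 ± 45.3 (SD, n = 4 each) by its pair of probe sets. Smarca5, the ATPase of ISWI remodellers, rose from 4737 ± 163 to 6720 ± 500, and its other agreeing probe set from 2617 ± 502 to 4168 ± 198. Smc4, a condensin subunit, rose from 4416 ± 324 to 5886 ± 452 by its brightest probe set. Gclm, a subunit of the enzyme that starts glutathione synthesis, rose from 2282 ± 133 to 3204 ± 148. Dnmt1, the maintenance DNA methyltransferase, agreed by its dimmer probe sets. They rose from 787.4 ± 48.4 to 1028 ± 89.0 and from 70.14 ± 46.4 to 248.5 ± 38.3, while the brightest read 1037 ± 78.7 and 916.2 ± 32.8 and did not pass.

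Among the agreeing genes that fell, the 12 largest with 2 agreeing probe sets that separated the groups leave out Socs3 (mean log2 change -1.22) and Hps1 (-0.82). Nfatc2, a transcription factor that calcineurin moves into the nucleus when Ca2+ is high, read 441.7, 415.5, 353.7 and 310.8 on the controls and 147.6, 144.1, 74.26 and 105.5 in Ca-free medium. Its other agreeing probe set read 246.5, 285.3, 270 and 230.1 on the controls and 119.1, 143.3, 123.7 and 132.9 in Ca-free medium. Every control array was above every Ca-free array in both (log2 changes -1.48 and -0.84, adjusted p = 0.000207 and 0.00101, limma). Gata2, a transcription factor of trophoblast, read 692.6, 839.4, 657.3 and 623.4 on the controls and 367.4, 323.6, 468.5 and 427.2 in Ca-free medium. Its second probe set read 742.2, 884.3, 545.8 and 637.5 against 496.7, 320.8, 323.3 and 401.5, so the groups were apart in both (log2 changes -0.78 and -0.81). Tsc22d3, a leucine zipper protein induced by glucocorticoids, fell in all 3 of its probe sets, by -0.63, -0.92 and -1.02 on the log2 scale. Sertad3, a regulator of E2F transcription, fell from 303.7 ± 43.2 to 149.4 ± 25.6 (SD, n = 4 each). Sirpa, a membrane receptor for CD47, fell from 287.0 ± 34.7 to 109.3 ± 30.0. Reg3b, a secreted lectin, fell from 565.3 ± 56.8 to 346.0 ± 16.0.

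Sv2b, a glycoprotein of synaptic vesicles, read 220.6, 196.9, 169.8 and 127.8 on the controls and 42.71, 50.42, 75.59 and 26.13 in Ca-free medium. Tgm3, a transglutaminase of the epidermis, read 293.6, 292.9, 212.8 and 232.1 against 62.34, 116.3, 116.6 and 84.69. Chrna7, the alpha7 subunit of the nicotinic acetylcholine receptor, fell from 333.1 ± 24.3 to 179.7 ± 29.8 (SD, n = 4 each). Cd209b, a C-type lectin, fell from 226.8 ± 21.4 to 121.5 ± 21.2, and Atp9b, a P-type ATPase of the flippase family, from 300.8 ± 36.3 to 158.2 ± 36.6. The transcript 4930447F24Rik fell from 275.6 ± 86.5 to 65.94 ± 31.1 by its lead probe set, but another of its probe sets read 213.9 ± 22.6 and 197.0 ± 60.03 and did not pass. These 12 genes, too, were chosen for groups that did not overlap. For each of the 12, the probe set with the smallest p was called lower under all 4 scalings.

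Some decreases rested on probe sets that disagreed or on control arrays that differed, as these genes, picked after their values were seen, show. Socs3, a feedback inhibitor of cytokine signalling, had the largest mean decrease of any agreeing gene (log2 change -1.22). It read 3983 and 4066 on controls 1 and 2, 1538 and 1631 on controls 3 and 4, and 1532, 660.7, 696.7 and 1632 on the Ca-free arrays. Ca-free arrays 1 and 4 were thus at the level of controls 3 and 4, and the groups overlapped. Tpx2, a spindle assembly factor that activates Aurora A, fell from 905.2 ± 87.1 to 450.1 ± 14.3 (SD, n = 4 each) by an agreeing probe set, while its brightest probe set read 2633 ± 235 and 2644 ± 107 and did not pass. Likewise Tubb4b, a beta-tubulin, fell from 1625 ± 60.5 to 966.9 ± 123, and its brightest probe set read 8969 ± 495 and 9499 ± 634. Several of these agreeing probe sets are of the x_at class, whose probes can match related transcripts.

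At least 2 probe sets of Chd4, Dnajc2, Mtch2, Reep3 and Sfmbt2 were higher under all 4, 5 of the 138 genes. At least 2 were lower under all 4 in 30 of the 88, Nfatc2, Gata2, Socs3, Tsc22d3, Tpx2, Braf, Ddr1 and Meg3 among them. A call under all 4 is limited by the scaling with the fewest calls in that direction. On the higher side this was hybridization control scaling, with 340 probe sets. On the lower side it was median scaling, with 1535.

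Genes with 1 tested probe set have no second measurement. Of 7899 such genes, 391 (4.95%) were higher and 767 (9.71%) lower under both scalings. Phrf1, a PHD and RING finger protein, read 118.4, 104.3, 92.6 and 110.4 on the controls and 368.2, 446.3, 469.6 and 381.9 in Ca-free medium (log2 change 1.69, adjusted p = 9.67e-05, limma). Nmnat1, which makes NAD in the nucleus, read 46.93, 34.06, 47.06 and 41.65 against 223.9, 259.4, 184.4 and 233.3 (log2 change 1.78). The genes named from this set, higher and lower, were chosen for groups that did not overlap. Phrf1 and Nmnat1 had a narrow spread on the controls. Stn1, a telomere protein, rose by 1.48 on the log2 scale. Gpr160, an orphan receptor, rose by 1.74, but its Ca-free arrays ran from 115.0 to 445.0 and the call ended with Ca-free arrays 2 and 3 only. Agrn, the basement membrane proteoglycan agrin, rose by 1.34, with controls between 27.71 and 164.8, and the call ended against controls 3 and 4 only and with Ca-free arrays 2 and 3 only.

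On the lower side, Arl14, a small GTPase of the Arf family, read 374.3, 314.1, 340.4 and 324.9 on the controls and 105.8, 52.58, 68.79 and 95.15 in Ca-free medium. Ccdc138, a coiled-coil protein, read 640.7, 695.4, 608 and 592.3 on the controls and 155.4, 195.2, 296 and 193 in Ca-free medium. The groups, chosen not to overlap, were far apart in both (log2 changes -1.74 and -1.49, adjusted p = 5.87e-05 and 0.000267, limma). The keratin Krt72 fell by 1.69 and the transcript 1700025H01Rik by 1.42 on the log2 scale. Hspa1a, an inducible Hsp70 chaperone, read 5717 and 5219 on controls 1 and 2, 260.3 and 283.6 on controls 3 and 4, and 241.7, 114.2, 105.3 and 230.1 in Ca-free medium. Its log2 change of -2.73 followed the level of controls 1 and 2. The call ended against controls 3 and 4 only, and also with Ca-free arrays 1 and 4 only.

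The Ca-free values of the named genes were also set beside those of 20 pulses in the same model, a comparison that uses the same Ca-free arrays but no control array. Over all probe sets, 2565 (9.22%) were higher and 6505 (23.4%) lower in Ca-free medium than after 20 pulses. Of the 12 increases named among agreeing genes, 6 differed from 20 pulses in the same direction by the probe set shown and 6 were not called (Tbc1d15, Sfmbt2, Bod1l, Cep350, St13 and Mafg). All 12 decreases named among agreeing genes were lower than after 20 pulses. Differences from 20 pulses were tested at the deposited scaling only. There the median signal was 157.8 to 178.8 after 20 pulses and 127.6 to 130.6 in Ca-free medium. The named and agreeing genes were chosen by the same Ca-free values, so counts that differ in the same direction are a description only. Chd4 read 330.1, 83.35, 303.5 and 191.8 after 20 pulses, between its control and Ca-free levels. Sfmbt2 read 732.8, 829.6, 615.1 and 939.3 after 20 pulses, a range that contains its Ca-free values. Nfatc2 read 477.5, 426.7, 357.7 and 281.9 after 20 pulses, all above its Ca-free values, and Arl14 read 534.4, 544.3, 542.7 and 428.8, above its control values as well. Hspa1a read 140.1 to 185.0 after 20 pulses and did not differ by the test from Ca-free medium (log2 difference 0.07, adjusted p = 0.954, limma). Over all agreeing genes, at least 2 probe sets differed from 20 pulses in the same direction in 51 of the 138 higher and 62 of the 88 lower genes.

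The genes that handle Ca2+ were read by their brightest tested probe set. Of 13599 genes so read, 914 (6.72%) were higher and 1373 (10.1%) lower under both scalings, and 1667 (12.3%) were higher and 3919 (28.8%) lower at the deposited scaling. Of 25 tested channels, pumps and store proteins, 3 rose and 6 fell at the deposited scaling, and under both scalings 1 rose and 1 fell. Atp2b1, the plasma membrane Ca2+ pump PMCA1, read 1160, 1175, 824.5 and 802.7 on the controls and 1803, 1934, 1871 and 1799 in Ca-free medium. Another probe set of Atp2b1 read 815.3, 761.3, 624 and 707.4 against 898.4, 1026, 1015 and 828.4. Both separated the groups, with log2 changes of 0.90 and 0.36 (adjusted p = 0.000232 and 0.0105, limma), and a dim probe set did not pass. The brightest probe set of Atp2b1 was called higher under all 4 scalings. Itpr2, a subtype of the inositol trisphosphate receptor through which the store releases Ca2+, read 580.1, 617.2, 658.6 and 565.1 on the controls and 404.1, 358.1, 401.7 and 378.3 in Ca-free medium. Its groups were apart (log2 change -0.61, adjusted p = 0.00162, limma), but its call ended with median scaling and none of its other 5 tested probe sets was called under both scalings.

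Store proteins and entry channels moved little or unevenly. Calr, calreticulin, which buffers Ca2+ in the endoplasmic reticulum, met the rule for agreeing lower genes by a pair of x_at probe sets, with log2 changes of -0.22 and -0.29. Its brightest probe set read 7904 ± 340 and 7865 ± 852 (SD, n = 4 each) and did not pass. Canx, the related chaperone calnexin, read 9782 ± 866 and 11103 ± 332 and passed at the deposited scaling only. Trpv6, an epithelial Ca2+ channel, read 163.7, 320.5, 282.9 and 391.3 on the controls and 234.8, 60.18, 60.69 and 166.6 in Ca-free medium. Its groups overlapped, and its decrease of 1.09 passed at the deposited scaling only (adjusted p after quantile normalization 0.104, limma). The pump Atp2a2 (SERCA2) read 7348 and 7771, and the entry channel Orai1 508.2 and 506.6, and neither passed. These genes outside the naming rule were picked after their values were seen.

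The count of Ca2+ sensing genes changed with the scaling. The list took in calmodulin, its kinases, calcineurin, NFAT and protein kinase C, and also the coactivator Crebbp, which is outside these families. Of its 24 tested genes, 1 rose and 10 fell at the deposited scaling, where 28.8% of all genes fell. Under both scalings 1 rose and 1 fell. The median log2 change was -0.31 at the deposited scaling and -0.12 after quantile normalization, against -0.13 and -0.03 over all 13599 genes. The list's median was below that of all genes under all 4 scalings, by 0.17 and 0.18 with median and hybridization control scaling. The gene that fell was Nfatc2. The gene that rose was Crebbp, the coactivator CBP, at 1774, 1825, 1279 and 1189 on the controls and 2096, 2246, 2542 and 2200 in Ca-free medium. Its groups did not overlap (log2 change 0.59, adjusted p = 0.00359, limma), but its other 3 tested probe sets were not called under both scalings and its call ended with hybridization control scaling. The kinase Camk2g, which reads Ca2+ waves in the egg, was at 835.3 and 821.3 and did not pass.

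**Figure D4:**
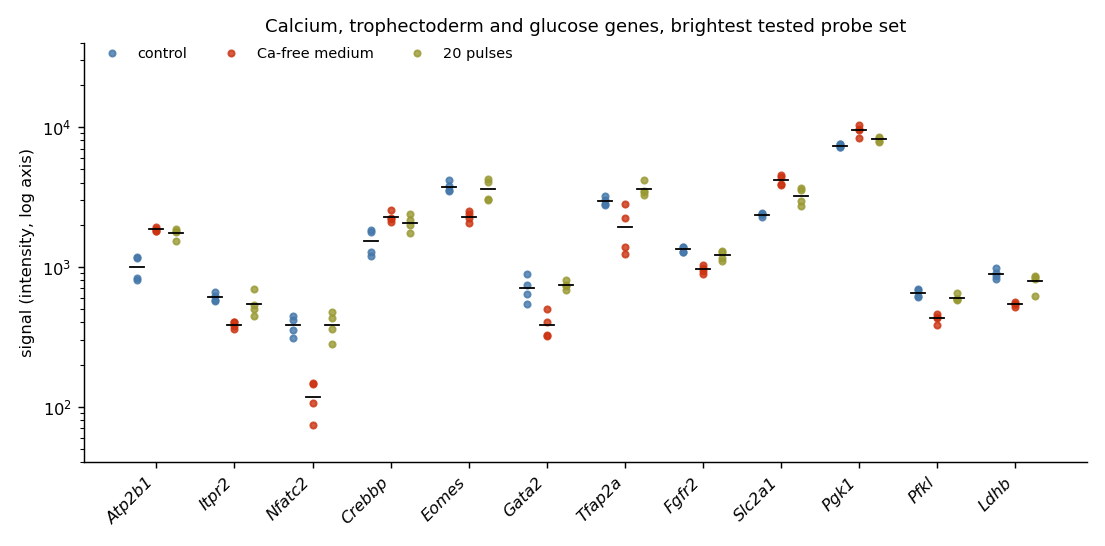
Signal (intensity, log axis) on every array for Ca2+, trophectoderm and glucose genes, by the brightest tested probe set. Points are arrays (4 per group) and bars are group means; Atp2b1, Crebbp, Slc2a1 and Pgk1 lie higher and Itpr2, Nfatc2, Eomes, Gata2, Fgfr2, Pfkl and Ldhb lower in Ca-free medium than in control without overlap, whereas the groups overlap for Tfap2a.

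Trophectoderm genes moved in different directions. Of 20 tested, 3 rose and 6 fell at the deposited scaling, where 12.3% of all genes rose and 28.8% fell. At that scaling the share lower was near that of all genes. Under both scalings 1 rose (5%) and 5 fell (25%), against 6.72% and 10.1% of all genes. Eomes, a T-box factor of trophoblast stem cells, read 4143, 3511, 3499 and 3749 on the controls and 2492, 2043, 2225 and 2375 in Ca-free medium. Fgfr2, the receptor through which FGF4 sustains trophoblast growth, read 1281, 1275, 1388 and 1387 on the controls and 891.3, 1021, 976.4 and 940.1 in Ca-free medium. Both were lower on every Ca-free array than on any control (log2 changes -0.70 and -0.46, adjusted p = 0.000545 and 0.000751, limma). The second probe set of Eomes did not pass (-0.20), and the call of Fgfr2 ended with median scaling. Tfap2a, picked after its values were seen like the next 3 genes, read 3202, 2760, 2797 and 3016 on the controls and 2820, 1227, 2243 and 1377 in Ca-free medium. Arrays 2 and 4 were low, array 1 was within the control range, and another probe set of Tfap2a read 1124 ± 41.0 and 1159 ± 316 (SD, n = 4 each). Elf3, an epithelial ETS factor, fell by 0.29 on the log2 scale with overlapping groups. Krt7, a keratin of simple epithelia, rose from 421.3 ± 80.2 to 569.6 ± 89.2, also with overlap. Lrp2, the endocytic receptor megalin, rose from 2392 ± 154 to 3562 ± 259 by a probe set called under both scalings, and its brightest probe set, from 6992 ± 424 to 8216 ± 422, passed at the deposited scaling only.

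The central trophectoderm factors did not follow Eomes and Gata2. Cdx2, with a log2 change of 0.28 at the deposited scaling, did not pass after quantile normalization (adjusted p = 0.315, limma). Gata3 read 2158 ± 216 and 2442 ± 255, Tfap2c 5581 ± 138 and 5825 ± 444, and Tead4 1958 ± 254 and 2156 ± 131 (SD, n = 4 each), and these brightest probe sets did not pass. A dimmer probe set of Tead4 fell from 1404 ± 272 to 1091 ± 98.2 under both scalings. Over the 20 genes the median log2 change was -0.08, and -0.11 after quantile normalization. Relative to all genes it was 0.05 higher at the deposited scaling and 0.07 lower after quantile normalization, so the direction of the list flipped between scalings.

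Among inner cell mass genes, of 20 epiblast and pluripotency genes, 4 rose at the deposited scaling (20%, against 12.3% of all genes) and 1 under both (5%, against 6.72%). That gene was Prdm14, a repressor of FGF signalling in pluripotent cells, at 554.7, 567.3, 556.8 and 680.7 on the controls and 744.7, 763.2, 795.8 and 726.3 in Ca-free medium (log2 change 0.35, adjusted p = 0.00664, limma). Every Ca-free array was above every control, but the call ended against controls 3 and 4 only and with hybridization control scaling. Sox2 read 3230 ± 47.3 and 3123 ± 662 and Klf4 4079 ± 374 and 3277 ± 1127 (SD, n = 4 each), with a wider spread in Ca-free medium. Neither passed at the deposited scaling, and Klf4 passed after quantile normalization only. Of 18 primitive endoderm genes, 4 fell at the deposited scaling (22.2%, against 28.8% of all genes) and 2 under both (11.1%, against 10.1%). Serpinh1, a collagen chaperone, read 583.9, 593, 590 and 634.8 on the controls and 415.9, 396.4, 397 and 396.5 in Ca-free medium, and its second probe set fell by 0.87 on the log2 scale. Amn, amnionless, the membrane partner of cubilin, fell from 588.3 ± 47.6 to 398.0 ± 31.2. The calls of Serpinh1 and Amn by these probe sets ended with median scaling. Sox17, at 629.9 ± 72.2 and 659.0 ± 266, and Pdgfra, at 657.5 ± 101 and 767.7 ± 159, did not pass. A dimmer probe set of Pdgfra fell from 629.7 ± 38.1 to 396.4 ± 66.8 under both scalings.

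Adhesion and cavitation genes showed single changes rather than a common one. Of 21 tight junction and cavitation genes, 1 rose and 2 fell under both scalings, where 6.72% of all genes rose and 10.1% fell. Aqp8, a water channel, read 731, 839.3, 684.1 and 739.3 on the controls and 481.6, 394.5, 441.2 and 507.5 in Ca-free medium, with no overlap (log2 change -0.68, adjusted p = 0.000294, limma). Cgn, cingulin of the tight junction, fell from 1068 ± 103 to 875.8 ± 26.9 (SD, n = 4 each), and the call ended without control 3 or without control 4. Of 18 cadherin, catenin and desmosome genes, 2 rose and 2 fell under both. Cdh3, P-cadherin, read 224.9, 195.7, 196.6 and 162.8 on the controls and 68.15, 59.64, 100.3 and 76.99 in Ca-free medium. Dsg2, a desmosomal cadherin, fell from 5255 ± 664 to 3860 ± 646 with overlap, while a dimmer probe set of Dsg2 rose under both scalings. The call of the brighter one ended with median scaling, against controls 3 and 4 only and with Ca-free arrays 2 and 3 only. Pkp2, a desmosomal plaque protein, rose from 1925 ± 65.1 to 2682 ± 115 by its brightest probe set. The mean log2 change of its 4 tested probe sets was 0.05. Cdh2, N-cadherin, rose from 67.26 ± 52.0 to 181.5 ± 43.2 with overlap. Cdh1, E-cadherin, whose adhesion needs Ca2+, was at 9389 and 9299 and did not pass. Of 35 actin regulators, 6 rose and 2 fell, with Tpm1, a tropomyosin, rising from 900.7 ± 137 to 1357 ± 48.0. The calls of Pkp2 and Tpm1 ended with hybridization control scaling. In the same list Arpc5, an Arp2/3 subunit, rose by 0.27 and the GTPase Rhoa by 0.22 on the log2 scale, and both turned negative with hybridization control scaling (-0.07 and -0.11).

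Glucose uptake and glycolysis moved both ways. Of 25 genes, 6 rose and 8 fell at the deposited scaling, and 3 rose and 5 fell under both. The shares under both were 12% and 20%, against 6.72% and 10.1% of all genes. Slc2a1, the glucose transporter GLUT1, read 2421, 2386, 2391 and 2250 on the controls and 3902, 4356, 4509 and 3819 in Ca-free medium. Its second probe set read 999.3, 1040, 1023 and 1070 against 1310, 1484, 1544 and 1106. Both separated the groups (log2 changes 0.80 and 0.38, adjusted p = 0.000128 and 0.00704, limma), while a dimmer probe set, at 563.0 ± 63.1 and 534.1 ± 82.6 (SD, n = 4 each), did not pass. Pgk1, phosphoglycerate kinase, agreed as well and rose from 7346 ± 204 to 9449 ± 795. Both were picked after their values were seen. Phosphofructokinase catalyses the committed step of glycolysis, and of its subunits Pfkl and Pfkm fell, while Pfkp, at 215.5 and 169.0, did not pass. Pfkl read 677.3, 695.2, 614.3 and 604.1 on the controls and 461.4, 430.1, 384.4 and 438.5 in Ca-free medium, and Pfkm fell from 576.5 ± 86.7 to 355.1 ± 29.6. Ldhb, lactate dehydrogenase B, fell from 890.6 ± 69.7 to 539.5 ± 19.7 by its brightest probe set. Its 3 dimmer probe sets had log2 changes of 0.03, 0.25 and 0.51 that did not pass at the deposited scaling, and those at 0.25 and 0.51 passed as increases after quantile normalization. Pfkl and Pfkm lost their calls with median scaling.

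Stress genes did not move as a group. Of 29 genes of the endoplasmic reticulum and amino acid stress response, 4 rose (13.8%) and 7 fell (24.1%) under both scalings. Over all genes these shares were 6.72% and 10.1%. Herpud1, a membrane protein of endoplasmic reticulum degradation, read between 647.5 and 710.6 on the controls and between 295.0 and 335.2 in Ca-free medium (log2 change -1.002, adjusted p = 0.000109, limma). Ern1, the stress sensor IRE1, fell from 781.8 ± 25.8 to 423.4 ± 100 and Atf5 from 413.7 ± 32.9 to 244.8 ± 25.8 (SD, n = 4 each). Pdia3, a disulfide isomerase picked after its values were seen like the next 2 genes, rose from 866.6 to 1405 by its brightest probe set, while its other probe set fell under both scalings. Atf4, the transcription factor of the amino acid response, fell from 8805 to 6311 and Xbp1, the target of IRE1, rose from 3117 to 4272. Of 33 p53 targets and apoptosis genes, 2 rose (6.06%) and 6 fell (18.2%). Phlda3, a p53 target that restrains Akt, fell from 700.5 ± 68.5 to 399.6 ± 7.63, and Casp2 from 1112 ± 81.0 to 830.2 ± 68.8. Bcl2l1, which encodes Bcl-xL, fell by 0.32 on the log2 scale and turned to 0.08 with median scaling. Of 25 heat shock genes, the 3 that fell under both were Hspa1a, Hspa1b and Hspb8, and a dimmer probe set of Hspb8 rose under both. Hspa1b read 3507 to 10477 on the controls and 2195 to 3758 in Ca-free medium, with overlap. Its call ended with median scaling, against controls 3 and 4 only, with Ca-free arrays 1 and 4 only, and on leaving out control 1, control 2 or Ca-free array 2. Of 20 immediate early genes, 1 rose and 2 fell, with Jund from 2952 ± 223 to 2146 ± 150 and Fosl2 from 569.0 ± 20.8 to 371.4 ± 16.0. The calls of Jund, Fosl2, Atf5 and Casp2 ended with median scaling.

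Mitochondrial ribosomal proteins, RNA polymerase II genes and Mediator had the largest shares of genes that rose among the 36 lists. Of 77 mitochondrial ribosomal proteins, 22 rose (28.6%) and 3 fell (3.90%) under both scalings, against 6.72% and 10.1% of all genes. Their median log2 change was 0.20, and 0.10 after quantile normalization. Mrpl33, a protein of the large mitochondrial subunit, rose from 2955 ± 854 to 5922 ± 711 (SD, n = 4 each), Mrpl18 from 3499 ± 288 to 4877 ± 278 and Mrpl47 from 3433 ± 263 to 4761 ± 214. Mrpl28, picked after its values were seen, went the other way, from 4298 to 2778. Of 51 subunits of RNA polymerase II and the general factors, 12 rose and 2 fell. Polr2a, the largest subunit, read between 1312 and 1438 on the controls and between 1862 and 2025 in Ca-free medium (log2 change 0.49, adjusted p = 0.000527, limma). Polr2b, the second largest subunit, rose from 7306 ± 194 to 9307 ± 678. Both lost their calls with hybridization control scaling. Of 30 Mediator subunits, 6 rose and 1 fell, Med29 rising from 321.6 ± 50.6 to 563.3 ± 37.7, Med19 from 769.4 ± 54.5 to 1090 ± 87.9 and Med4 from 1512 ± 60.5 to 1936 ± 86.7. Of 53 genes of mRNA 3' processing, export and decay, 8 rose and 2 fell, with Dis3, the exosome nuclease, rising from 1689 ± 215 to 2384 ± 155 and Exosc1 from 2553 ± 62.4 to 3457 ± 135. The calls of Mrpl18, Mrpl47, Med19, Med4, Dis3 and Exosc1 also ended with hybridization control scaling. These rises are by the brightest probe set. Over all tested probe sets the mean log2 change was 0.02 for Mrpl47, 0.16 for Mrpl33 and 0.18 for Exosc1. It was 0.21 for Med19 and 0.29 for Med29.

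The medians of these lists depended on the scaling in sign but not in order relative to all genes. With hybridization control scaling the median log2 change was -0.13 for mitochondrial ribosomal proteins, -0.17 for RNA polymerase II genes and -0.19 for Mediator, against -0.44 over all 13599 genes. With median scaling the same medians were 0.61, 0.57 and 0.55, against 0.25. Relative to all genes, the mitochondrial ribosomal median was higher by 0.34 at the deposited scaling, by 0.13 after quantile normalization, by 0.37 with median scaling and by 0.31 with hybridization control scaling. These lists are bright, with median signals of 2610, 1593 and 1106 against 454.6 over all genes, and the brightest of the 10 sets of probe sets had a median change of 0.12. The part of brightness in the shift of these lists was not tested. Under all 4 scalings, 114 of all genes (0.838%) were higher and 595 (4.38%) lower. Among these lists, Mrpl33, Mrpl41, Med29 and Pan3 were higher and Mrpl28 and Med15 lower under all 4.

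Of 67 ribosome biogenesis factors, 11 rose and 2 fell under both scalings, with Nop56, a core protein of snoRNPs, rising from 2743 ± 229 to 3596 ± 52.8 and Pes1 from 2001 ± 106 to 2554 ± 60.7 (SD, n = 4 each). Of all genes, 6.72% rose and 10.1% fell under both. Of 82 genes of oxidative phosphorylation, 11 rose and 2 fell. Ndufaf4, an assembly factor of complex I whose promoter is printed above, rose from 1956 ± 51.4 to 2824 ± 170, and Ndufa6, a subunit of that complex, from 2840 ± 216 to 4044 ± 188. Of 45 proteasome genes, 5 rose and the others did not pass under both, with Psma7 rising from 5142 ± 106 to 6718 ± 391 and Psmb1 from 5521 ± 453 to 7343 ± 169. Of 43 cytosolic ribosomal proteins, 5 rose and 1 fell, with Rps2 rising from 7903 ± 1027 to 11173 ± 1222, a set for which many probe sets can share sequence with pseudogenes. Of 52 translation factors, 3 rose and 2 fell, and Etf1, the release factor eRF1, rose from 3364 ± 289 to 5104 ± 397. Of 47 nuclear pore and transport genes, 19 rose at the deposited scaling but 4 under both, Nup133 among them (3320 ± 112 to 4704 ± 248). These rises are by the brightest probe set. Over all tested probe sets the mean log2 change was -0.04 for Psmb1, 0.00098 for Nup133 and 0.09 for Etf1. It was 0.12 for Pes1 and 0.37 for Nop56. Of 67 splicing factors, 9 rose and 7 fell under both. Luc7l3, a U1-associated factor, rose from 3661 ± 66.6 to 5385 ± 546, Srsf9 from 2949 ± 80.9 to 3910 ± 243 and Srsf5 from 2888 ± 203 to 4047 ± 376. With hybridization control scaling the calls of Nop56, Pes1, Ndufaf4, Ndufa6, Psma7, Psmb1, Rps2, Nup133, Srsf9 and Srsf5 by these probe sets ended. Those of Etf1 and Luc7l3 held. By several probe sets, Eftud2, Luc7l3, Rbm25, Sf3a3, Srsf1 and Srsf3 agreed on a rise and Sf3b4 on a fall. Sf3b4 read 5767, 5936, 5740 and 5891 on the controls and 4670, 4786, 4968 and 4712 in Ca-free medium.

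**Figure D5:**
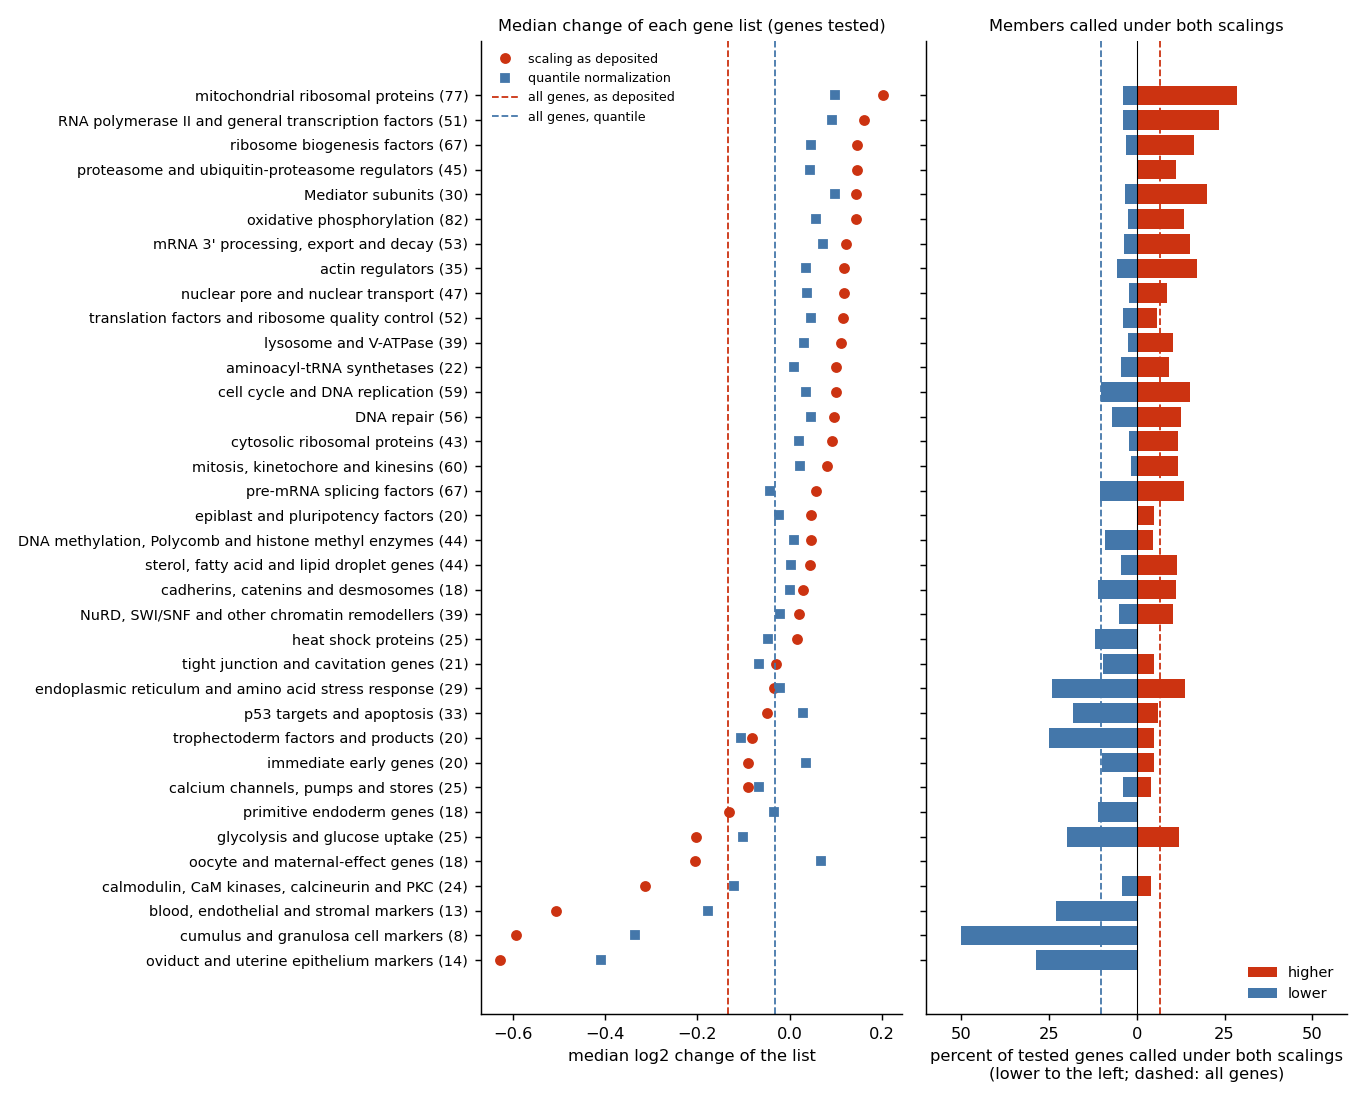
Left, median log2 change (Ca-free medium minus control) of 36 gene lists by brightest probe set, at the deposited scaling (circles) and after quantile normalization (squares), with dashed lines for the medians of all 13599 genes (-0.13 and -0.03) and the number of tested genes in parentheses. Right, percent of each list called higher or lower under both scalings, with dashed lines at 6.72% and 10.1% for all genes; mitochondrial ribosomal proteins have the largest share of higher genes and cumulus cell markers the largest share of lower genes.

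Genes of division and chromatin were mixed. Of 59 cell cycle and replication genes, 9 rose (15.3%) and 6 fell (10.2%) under both scalings, against 6.72% and 10.1% of all genes. Gins1 and Gins4, subunits of the replicative helicase, rose from 2189 ± 84.1 to 3002 ± 98.8 and from 1452 ± 117 to 2239 ± 243 (SD, n = 4 each). The call of Gins1 ended with hybridization control scaling. Orc1, the largest origin recognition subunit, was picked after its values were seen and fell from 1047 to 515.8. Of 60 genes of mitosis, 7 rose and 1 fell. Ncapg, a condensin subunit, read between 416.0 and 723.2 on the controls and between 1190 and 1496 in Ca-free medium (log2 change 1.33, adjusted p = 0.000105, limma). Cenpe, a kinetochore motor, rose from 1392 ± 187 to 2483 ± 198, and both Ncapg and Cenpe were called higher under all 4 scalings. Of 39 chromatin remodellers, 4 rose and 2 fell under both, with Chd4, Smarca5 and Smarce1 agreeing by several probe sets. Of 44 genes of DNA methylation, Polycomb and histone methylation, 2 rose and 4 fell. Kdm4c, a histone demethylase, fell from 466.7 ± 67.0 to 241.0 ± 23.8, Kmt2a from 520.2 ± 30.1 to 360.1 ± 29.2 and Kmt2b from 806.8 ± 22.7 to 604.9 ± 38.3. The calls of Kmt2a and Kmt2b ended with median scaling. Of 56 DNA repair genes, 7 rose and 4 fell, with the checkpoint kinases Atm and Atr rising by 0.43 and 0.36 on the log2 scale. Their other probe sets gave no agreement, and the calls of Atm and Atr ended with hybridization control scaling.

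Of 44 sterol, fatty acid and lipid droplet genes, 5 rose (11.4%) and 2 fell (4.55%) under both scalings, against 6.72% and 10.1% of all genes. Fasn, fatty acid synthase, rose from 1014 ± 131 to 1604 ± 258 and Dhcr7, the last enzyme of cholesterol synthesis, from 1395 ± 62.1 to 2107 ± 443 (SD, n = 4 each). The call of Dhcr7 ended with Ca-free arrays 2 and 3 only, and also with hybridization control scaling. Srebf2, the transcription factor of sterol synthesis, was picked after its values were seen and fell from 369.1 to 171.5. Of 39 lysosome and V-ATPase genes, 4 rose and 1 fell under both. Atp6v1b2, a subunit of the proton pump, read between 814.4 and 1130 on the controls and between 1434 and 1686 in Ca-free medium, and Atp6v1a rose from 3170 ± 140 to 4030 ± 208. These values are by the brightest probe set. Over all tested probe sets the mean log2 change was -0.08 for Atp6v1b2 and 0.32 for Atp6v1a. The call of Atp6v1a ended with hybridization control scaling.

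Markers of other cells were read as summed signals of the tested genes of each list. Of 18 oviduct and uterine epithelium markers, 14 were tested, and their sum was 3363 to 4072 on the controls and 1982 to 2378 on the Ca-free arrays. Of 22 blood, endothelial and stromal markers, 13 were tested, and their sum was 3744 to 4156 against 2515 to 2917. These ranges did not overlap. The sums were taken at the deposited scaling, where 27% of all probe sets tested lay wholly below the controls. The oviduct and blood lists had median signals of 182.3 and 185.9, against 454.6 over all genes. Of 20 cumulus and granulosa markers, 8 were tested, with sums of 5025 to 5545 and 4510 to 5461, and of 24 oocyte genes, 18 were tested, with sums of 30081 to 32556 and 28095 to 32749. Under both scalings 4 oviduct (28.6%), 3 blood or stromal (23.1%) and 4 cumulus markers (50%) fell, against 10.1% of all genes. Inhba, an activin subunit, read between 230.8 and 357.2 on the controls and between 63.17 and 146.8 in Ca-free medium. Ovgp1, the oviductal glycoprotein, fell from 296.9 ± 37.6 to 159.7 ± 15.8, and Acta2, smooth muscle actin, from 1157 ± 84.3 to 726.7 ± 129 (SD, n = 4 each), a call that ended with median scaling. Most of these markers are dim, with a median signal of 276.2 for the cumulus list, though Acta2 is not. Most agreeing genes with large decreases are dim as well, and the part of these markers in those decreases was not tested. The listed markers not tested had a mean signal under 100 or no probe set paired with a single gene.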

How the data were processed

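The deposited table holds linear intensity values of 45101 probe sets, 64 of them array controls, made by the authors with MAS5 per the submitters' processing notes (version not given), and the values show each array at the same 2% trimmed mean. Each array was rescaled to a trimmed mean of 500, 32 was added, and log2 values were computed here from the deposited intensities. Probe sets with a mean of at least 100 were tested with limma 3.58.1 in R 4.3.3 (lmFit and eBayes with trend, all 12 arrays), with Benjamini-Hochberg adjusted p under 0.05 over 27808 probe sets. A log2 change on this scale understates changes of dim probe sets. The platform's table paired 34958 probe sets with 1 gene, 932 with several and 9147 with none, and 34754 symbols matched RefSeq (GRCm38.p6).

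The genes named are the 12 largest changes each way among agreeing genes with 2 non-overlapping agreeing probe sets, the 5 largest each way among genes with 1 tested probe set, not overlapping and at a mean of at least 200, up to 3 members of each of 36 lists, and 7 lineage factors. The members and lists were chosen with earlier results of these data known, and genes beyond the rule are marked as picked after their values were seen. Alternatives were quantile, median and hybridization control scaling (9 probe sets), added values of 1 and 100, no filter or a minimum of 300, the 8 arrays alone, a replicate block, pairs of controls or Ca-free arrays, and each array left out. In data simulated for this comparison over 27808 probe sets, the fit recovered 50% of changes of 1.5-fold, 78% of 2-fold, 96% of 3-fold and 100% of 4-fold, and made 3 false calls. The simulated noise was independent between arrays and held no shift by brightness, no scaling difference and no difference between pairs of controls. The simulation therefore cannot show the error rate of the real comparison. The number of arrays limits the precision.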

Additional observations from a re-analysis of the deposited data

Results flagged for a closer look

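In 8 groups of 4 arrays, out of 274 tested, 1 array lay far from the other 3 by Dixon's criterion, which chance alone gives in about 1 of 20 groups. On control 4, Stn1 read 136.1 against 53.5 to 61.6 on the other controls, Prdm14 read 680.7 against 554.7 to 567.3, and Cdh2 read 144.7 against 34.7 to 50.1. On control 3, Amn read 659.2 against 556.9 to 570.9, and Etf1 read 3793 against 3169 to 3268. On Ca-free array 1, Serpinh1 read 415.9 against 396.4 to 397.0. On Ca-free array 2, Krt72 read 116.1 against 31.9 to 45.4. On Ca-free array 4, Pkp2 read 2853 against 2609 to 2637. In each of these genes except Cdh2, all Ca-free arrays lay on the same side of all controls.

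The array's control probe sets for 18S ribosomal RNA took no part in the comparison and were brighter in Ca-free medium. The ratio of the group means, Ca-free medium over control, was 2.921 for the 5' probe set, 1.499 for the middle one and 2.14 for the 3' one. For the 5' probe set, the highest control read 2559 and the lowest Ca-free array 4003, and the groups were likewise apart for the other pair of probe sets. The part of this signal in the comparison was not tested.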

How the results depend on the processing

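The counts depended most on the scaling, and agreement also on single arrays. Probe sets called higher (2944) became 10236 with median scaling and 340 with hybridization control scaling. Probe sets called lower (8249) became 2774 with quantile normalization, 1535 with median scaling, 17634 with hybridization control scaling, 3063 at a minimum mean of 300, where fewer probe sets were tested, and 4474 against controls 3 and 4 only. Without each array in turn, the counts ran from 2441 to 2884 and from 6630 to 7584. Agreeing higher genes (138) became 292 with quantile normalization alone, 291 with median scaling, 2 with hybridization control scaling, where opposite calls remove genes by construction, and 17 where 3 agreeing probe sets were required. Agreeing lower genes (88) became 26 with median scaling, 54 with no filter, 48 against controls 1 and 2 only, 37 against controls 3 and 4 only, 52 with Ca-free arrays 2 and 3 only and 12 where 3 were required. Without each array in turn, the agreeing counts ran from 93 to 119 and from 53 to 80. Against controls 3 and 4 only, 59 of the 138 and 26 of the 88 genes were shared. List members called higher (358) became 171, 996 and 19, and those called lower (151) became 26 with median and 688 with hybridization control scaling. Except where stated, the cause was not tested.

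With the replicate number as a block, 2875 probe sets were higher and 8082 lower, and 133 and 77 genes agreed, 119 and 71 of them shared. Same-numbered arrays did not deviate together (correlations -0.02, 0.03, -0.06 and 0.02), so the correlations gave no sign of pairing by number. They cannot exclude it, because the labels do not say which arrays were collected together.

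Of the values of named genes under the alternatives, 2714 kept direction and side of the threshold. Without a change of sign, 90 lost the call and 14 gained it, and 34 changed sign, whether called or not. With hybridization control scaling the log2 change became -0.020 for Mafg, -0.068 for Arpc5, -0.11 for Rhoa, -0.015 for Gtf2e2, -0.16 for Kpna2, -0.12 for Rpl35, -0.030 for Rpl37a, -0.076 for Eif3h, -0.036 for Uqcrc2, -0.088 for Elovl1, -0.081 for Smpd1, -0.16 for Gata3, -0.28 for Tfap2c, -0.19 for Tead4 and -0.12 for Pdgfra. With median scaling it became 0.13 for Cgn, 0.055 for Hspb8, 0.085 for Bcl2l1, 0.34 for Sox2, 0.035 for Klf4 and 0.38 for Sox17. After quantile normalization it became -0.071 for Tfap2c and 0.060 for Sox17. With Ca-free arrays 2 and 3 only it became 0.19 for Sox2 and 0.064 for Klf4, and with Ca-free arrays 1 and 4 only -0.021 for Tfap2c, 0.48 for Sox17 and -0.042 for Pdgfra. Against controls 3 and 4 only it became -0.011 for Tead4 and 0.074 for Sox17. Without each array in turn, Sox2 ran from -0.16 to 0.039 and Sox17 from -0.19 to 0.17. Signals near the minimum mean of 100 limit the dim genes.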
